A study of Mus musculus with 6 samples.

Results

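Blood vessels of the embryonic palate are represented here by 32 genes, 21 of endothelial cells and 11 of mural cells, among the 23420 genes of the deposited count tables. Members were found by their gene symbol, and all 32 were present. Endothelial cells line the vessels, and mural cells (pericytes on capillaries, smooth muscle cells on larger vessels) wrap them. RNA sequencing libraries came from the future anterior hard palate of C57BL/6 mouse embryos at stage E14.5, counted in days of embryonic life, with 3 libraries of control and 3 of mutant. The control genotype was Shox2Cre/+;Nkx2.5F/F and the mutant genotype Shox2Cre/-;Nkx2.5F/F, so both groups carried 1 copy of Cre in Shox2 and a floxed Nkx2-5 gene, and the control was not wild type. Cre in this design is made where the Shox2 locus is used, and the labels do not say whether vessel cells are among those cells or whether embryos were pooled. The p-values below therefore measure the spread between these libraries.

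Vessels form when endothelial cells, which carry the VEGF receptors and the angiopoietin receptor TEK, grow toward VEGF made by the tissue around them. Endothelial cells release PDGFB, which draws in mural cells, and mural cells in turn supply ANGPT1 to TEK. Smooth muscle genes are switched on by the factor SRF with its partners of the myocardin family through a short DNA element, the CArG box, and many endothelial genes by ETS factors such as ERG and FLI1. Several of the mural members (Acta2, Tagln, Myl9, Mylk, Anpep, Cspg4) are also made by other mesenchymal or epithelial cells, so their levels in whole tissue are not those of vessels alone.

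Promoter sequences were looked up for the ETS and CArG motifs named above. RefSeq promoters on GRCm38.p6, from 250 bases before to 50 after each gene's start, were found for 10 of the 21 endothelial and 9 of the 11 mural genes. Entries were missing for Pecam1, Cdh5, Vwf, Esam, Sox17, Sox18, Icam2, Ramp2, Plvap, Mmrn2, Nos3, Myh11 and Tagln. The ETS motif AGGAAG, read on both strands, was found in 8 of 14 endothelial promoters (57.1%), in 0 of 9 mural promoters and in 35.4% of all 32817 promoters of this length. The CArG box, read on both strands, was found in 1 of 9 mural promoters (11.1%), in 0 of 14 endothelial promoters and in 1.63% of all promoters. No promoter of these genes held both motifs, so no matches of the 2 overlapped, and a match is a description of the sequence. The 250 bases before the start are shown 5′ to 3′ in the direction of transcription for the 4 called members that have an entry (Robo4, Flt4, Rgs5 and Mylk) and for Myl9, which held the CArG box. Capitals mark a motif match.
Robo4 (chr9:37401722-37401971, plus strand; the capitals mark the ETS motif): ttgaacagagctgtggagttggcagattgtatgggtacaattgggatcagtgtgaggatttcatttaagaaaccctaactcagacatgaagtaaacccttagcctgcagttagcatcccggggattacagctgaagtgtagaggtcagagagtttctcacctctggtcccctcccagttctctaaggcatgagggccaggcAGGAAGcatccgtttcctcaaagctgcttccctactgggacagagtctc
Flt4 (chr11:49609429-49609678, plus strand; no match): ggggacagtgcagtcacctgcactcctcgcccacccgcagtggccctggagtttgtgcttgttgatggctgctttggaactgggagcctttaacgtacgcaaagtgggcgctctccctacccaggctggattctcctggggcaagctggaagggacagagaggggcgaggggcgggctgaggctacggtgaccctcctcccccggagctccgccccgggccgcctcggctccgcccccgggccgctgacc
Rgs5 (chr1:169655251-169655500, plus strand; no match): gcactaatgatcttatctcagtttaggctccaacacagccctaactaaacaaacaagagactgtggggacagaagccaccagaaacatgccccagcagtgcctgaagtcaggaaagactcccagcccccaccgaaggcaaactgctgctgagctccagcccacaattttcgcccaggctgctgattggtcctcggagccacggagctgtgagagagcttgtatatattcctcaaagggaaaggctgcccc
Mylk (chr16:34784700-34784949, plus strand; no match): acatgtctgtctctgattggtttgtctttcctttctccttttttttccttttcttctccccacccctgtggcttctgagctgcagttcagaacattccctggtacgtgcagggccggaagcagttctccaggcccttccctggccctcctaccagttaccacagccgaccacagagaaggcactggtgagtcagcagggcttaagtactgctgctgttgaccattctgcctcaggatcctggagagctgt
Myl9 (chr2:156775214-156775463, plus strand; the capitals mark the CArG box): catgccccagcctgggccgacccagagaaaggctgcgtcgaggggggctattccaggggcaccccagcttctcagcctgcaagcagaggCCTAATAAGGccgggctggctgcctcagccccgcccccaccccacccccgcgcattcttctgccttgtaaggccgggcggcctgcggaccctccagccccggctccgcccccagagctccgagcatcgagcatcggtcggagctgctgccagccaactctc
The ETS match of Robo4 began 49 bases before the start, and the CArG box of Myl9 161 bases before it. No match says only that these letters are not in this window.

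Shox2 was low in every mutant library, at 5.31, 4.12 and 3.13 CPM against 88.2, 68.2 and 81.7 CPM in the controls (CPM, read counts relative to the TMM-scaled library size). Total counts lay between 81950407 and 134813429 in the controls and between 52668242 and 53331397 in the mutants, so depth and genotype coincide. Of 16604 genes that passed the filter on low counts, 7606 (45.8%) were called by the edgeR quasi-likelihood test at an adjusted p under 0.05, 24.1% higher and 21.7% lower in the mutant. The groups did not overlap for 58.9% of tested genes. The mean log2 CPM of 4 Y-linked genes was 5.43, 3.03 and 4.34 in the controls and 5.63, 5.87 and 5.65 in the mutants. This measure was thus higher in every mutant, though control replicate 1 lay close to the mutants and the controls differed widely. All 32 members passed the filter and had counts in every library, among them the defining endothelial markers Pecam1 and Cdh5 and the mural markers Rgs5 and Cspg4, so the labelled tissue held RNA of both cell types.

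Of the 21 endothelial genes, 4 rose in the mutant (Vwf, Sox17, Flt4 and Robo4), none fell and 17 were not called, so 19.0% were called against 45.8% of all tested genes. At an unadjusted p under 0.05 there were 5 higher and 0 lower members. DESeq2 called 5 higher and 0 lower, and limma-voom 4 and 0. The groups did not overlap for 5 of the 21 genes (23.8%), all higher in the mutant, beside 29.7% of all tested genes that were higher without overlap and 29.2% that were lower. The median log2 fold change of the set was 0.23, beside -0.004 over all tested genes, and 17 of the 21 values were above 0 (13 without control replicate 1, 20 with a Y-linked covariate). The summed level of the set was 790.9, 1042 and 980.8 CPM in the controls and 959.8, 1240 and 1137 CPM in the mutants, so the groups overlapped. In whole tissue, a difference in the number of cells of a type and a difference in RNA per cell cannot be told apart. The count of 4 was 2 without any single control replicate, 7 without mutant replicate 1, and 1 when mutant replicate 2 or 3 was left out. The median was 0.08 without control replicate 1 and 0.12 without mutant replicate 2.

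Of the 11 mural genes, Rgs5 and Mylk rose, none fell and 9 were not called (18.2% called beside 45.8% of all tested genes). At an unadjusted p under 0.05 there were 5 higher and 0 lower members. DESeq2 called 5 higher and 0 lower, and limma-voom 3 and 0. The groups did not overlap for 5 of the 11 genes (45.5%), all higher in the mutant, beside the 29.7% of all tested genes that were higher without overlap. The median log2 fold change was 0.43, and 10 of the 11 values were above 0 (7 without control replicate 1). The summed level was 301.1, 503.5 and 449.4 CPM in the controls and 601.1, 574.9 and 535.0 CPM in the mutants, so the groups did not overlap. The count of called genes was 4 without control replicate 2 and 1 without control replicate 3, mutant replicate 2 or mutant replicate 3. The numbers of all tested genes called higher in the same fits are given above. The median of the mural set was 0.26 without control replicate 1.

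**Figure D1:**
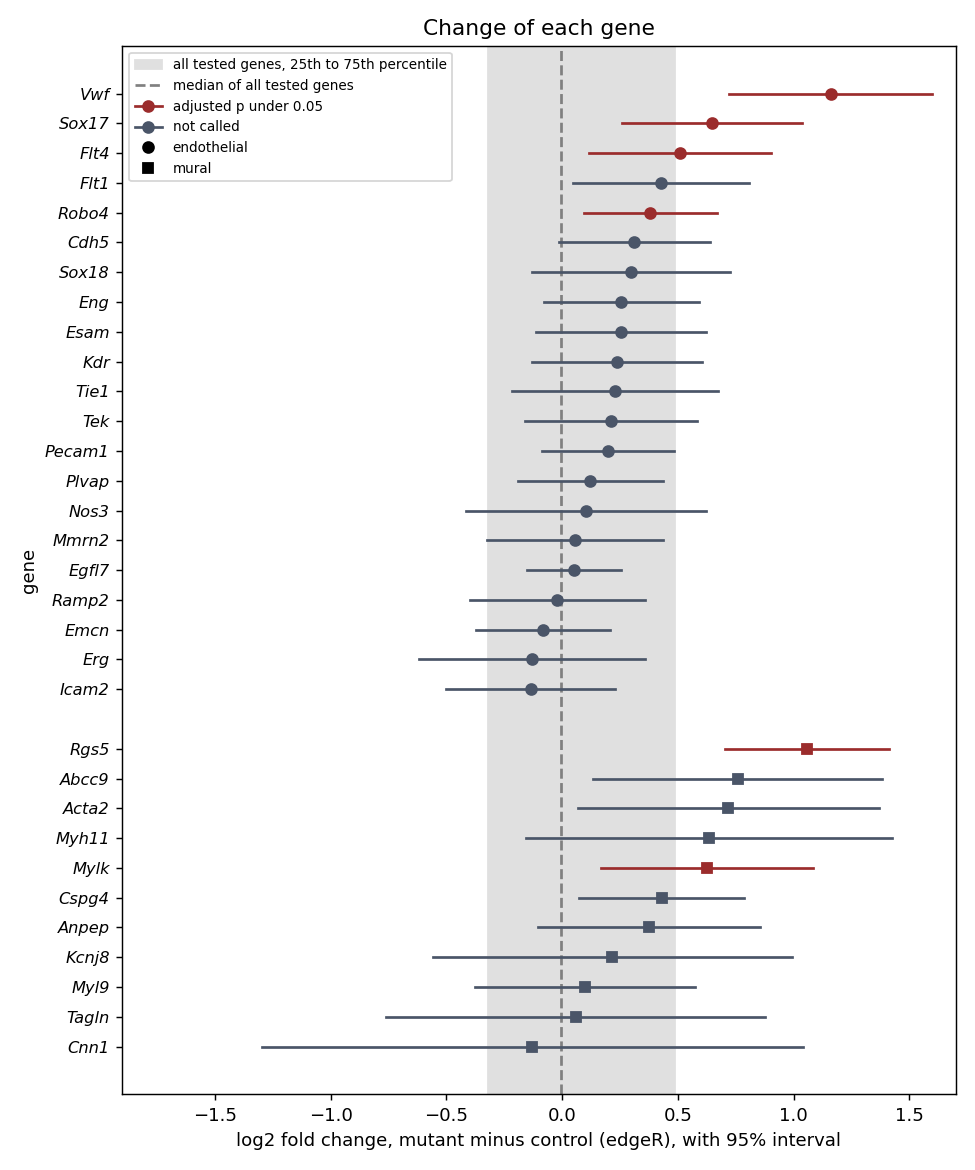
Each point is the edgeR log2 fold change (mutant minus control) of 1 gene with its 95% interval, endothelial genes as circles above and mural genes as squares below, red where the adjusted p was under 0.05. The grey band spans the 25th to 75th percentile of all tested genes (-0.32 to 0.49), and Vwf and Rgs5 stand farthest to the right in their sets.

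The receptors for VEGF and angiopoietins had values above 0 throughout, and 1 of the 5 was called. Flt4, the VEGF-C receptor of lymphatic and sprouting endothelium, was at 25, 32.7 and 33.0 CPM in the controls and 34.0, 50.1 and 45.01 CPM in the mutants. Every mutant library lay above every control library, though mutant replicate 1 only just, and Flt4 rose by 0.51 on the log2 scale (SE 0.17, edgeR adjusted p = 0.0418). The call was lost without any single control replicate or without mutant replicate 2 or 3 (adjusted p = 0.0618 to 0.139), and with a Y-linked covariate, where the value was larger (0.71, adjusted p = 0.0739). Flt1, a high-affinity VEGF receptor that also acts as a decoy, was at 26.3, 33.0 and 30.2 CPM in the controls and 34.3, 50.1 and 35.9 CPM in the mutants. Its groups did not overlap either, but it was not called (log2 fold change 0.43, SE 0.16, edgeR adjusted p = 0.0658). Flt1 was called higher by DESeq2 (adjusted p = 0.0323), with library size only (0.0392), with the replicate block (0.0237), without mutant replicate 1 (0.0441) and without replicate 1 of both groups (0.0486).

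Kdr, the main signalling receptor for VEGF-A, was at 81.8, 95.2 and 91.4 CPM in the controls and 80.3, 125 and 111 CPM in the mutants. Mutant replicate 1 lay below all 3 controls and the other 2 mutants above them (log2 fold change 0.24, SE 0.16, edgeR adjusted p = 0.25). Without mutant replicate 1 Kdr was called higher (log2 fold change 0.40, edgeR adjusted p = 0.0149), and likewise without replicate 1 of both groups (0.33, 0.00806). Tek, the angiopoietin receptor, averaged 35.4 ± 5.76 CPM (28.8 to 39.2) in the controls and 41.1 ± 6.59 CPM (34.3 to 47.4) in the mutants (SD, n = 3 each). Its orphan relative Tie1 averaged 72.0 ± 16.6 CPM (52.9 to 83.7) and 84.3 ± 14.01 CPM (70.2 to 98.2). Neither was called in any fit.

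None of the 5 junction and adhesion genes was called. Cdh5, the cadherin that seals endothelial junctions, was at 125, 165 and 157 CPM in the controls and 157, 209 and 190 CPM in the mutants. The groups overlapped because mutant replicate 1 (156.5 CPM) lay below control replicates 2 and 3 (165.3 and 157.2 CPM). Cdh5 was not called (log2 fold change 0.31, SE 0.14, edgeR adjusted p = 0.104). Without mutant replicate 1 Cdh5 was called higher (edgeR adjusted p = 0.0407), as it was with the replicate block (0.015) and without replicate 1 of both groups (0.00909). Per kilobase of exon Cdh5 had the highest control level of the 21 genes, at 35.5 CPM per kb. Pecam1, an adhesion molecule of all endothelium, averaged 90.5 ± 11.3 CPM (77.8 to 99.4) in the controls and 104 ± 12.7 CPM (90.4 to 116) in the mutants. It was called in no fit, with a 95% interval of its log2 fold change from -0.09 to 0.48.

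Esam, another junction protein, was at 26.3, 40.4 and 36.2 CPM in the controls and 37.6, 42.7 and 42.5 CPM in the mutants, with control replicate 1 lowest by far (log2 fold change 0.25, SE 0.16). With a Y-linked covariate Esam was called higher (0.63, edgeR adjusted p = 0.0253). Emcn, a sialomucin of veins and capillaries, averaged 32.3 ± 4.19 CPM (27.7 to 35.9) and 30.6 ± 2.94 CPM (27.8 to 33.7). Icam2, an adhesion molecule of resting endothelium, averaged 19.1 ± 2.99 CPM (15.7 to 21.4) and 17.4 ± 2.17 CPM (15.2 to 19.6). Emcn and Icam2 were thus among the 4 endothelial genes with a value below 0, at -0.08 (SE 0.12) and -0.13 (SE 0.16) on the log2 scale (0.13 and 0.0519 with a Y-linked covariate), and their groups overlapped almost wholly.

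Among the transcription factors, Sox17, which specifies arterial endothelium, was at 5.13, 6.54 and 6.23 CPM in the controls and 8.21, 10.3 and 9.53 CPM in the mutants. All 3 mutants lay above all 3 controls, and Sox17 rose 1.57-fold (log2 fold change 0.65, SE 0.17, edgeR adjusted p = 0.0163). Leaving out mutant replicate 2 ended the call (adjusted p = 0.0663), as did leaving out mutant replicate 3 (adjusted p = 0.0516). Sox17 had the lowest control level of the 21 genes, also per kilobase, at 1.25 CPM per kb.

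Sox18, its close relative in vascular and lymphatic development, averaged 27.0 ± 6.26 CPM (19.8 to 31.1) in the controls and 33.3 ± 3.89 CPM (29.5 to 37.3) in the mutants, with overlap. Erg, the ETS factor that keeps endothelial identity, was at 29.2, 33.8 and 25.1 CPM in the controls and 18.9, 29.1 and 32.6 CPM in the mutants. Mutant replicate 1 was the lowest library and the other 2 mutants lay within the control range (log2 fold change -0.13, SE 0.21). Its value was 0.07 without mutant replicate 1, so its sign rested on that library.

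Among the secreted, matrix and signalling genes, Vwf carried the largest change of the set. Vwf, von Willebrand factor, which tethers platelets and is made by endothelial cells and by megakaryocytes, the source of platelets, was at 25.2, 31.5 and 18.6 CPM in the controls and 60.2, 58.6 and 49.4 CPM in the mutants. The lowest mutant lay well above the highest control, and Vwf rose 2.24-fold (log2 fold change 1.16, SE 0.19, edgeR adjusted p = 0.00252). It was called in all 17 alternative analyses, at log2 fold changes from 0.98 to 1.37 and adjusted p from 2.43e-08 to 0.0134. Of 6 platelet and megakaryocyte markers, 4 (66.7%) were also called higher in the mutant, beside 24.1% of all tested genes. The summed level of the 6 was 10.5 to 14.7 CPM in the controls and 38.1 to 45.8 CPM in the mutants. Itga2b, the platelet integrin chain, went from 4.59, 5.03 and 5.28 CPM to 15.5, 17.2 and 16.1 CPM, whereas Gp9 and Gp1bb, both of the platelet receptor for VWF, were not called. None of the 6 markers was at 0 in all libraries of a group, and their part in the Vwf result was not tested.

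Robo4, a receptor that steadies vessels, was at 15.1, 18.0 and 17.9 CPM in the controls and 19.7, 22.9 and 23.7 CPM in the mutants. The groups did not overlap, and Robo4 rose 1.30-fold (log2 fold change 0.38, SE 0.12, edgeR adjusted p = 0.038). Its call was lost without any single control replicate or without mutant replicate 2 or 3 (adjusted p = 0.0708 to 0.119), with control counts thinned to the smallest library (0.35, adjusted p = 0.0691) and with a Y-linked covariate, where the value was larger (0.52, adjusted p = 0.0702). Eng, a co-receptor for BMP9 and TGF-beta, was at 56.6, 74.9 and 72.9 CPM in the controls and 67.9, 85.9 and 90.4 CPM in the mutants, overlapping through mutant replicate 1 (log2 fold change 0.26, SE 0.14, edgeR adjusted p = 0.18). Eng was called higher with the replicate block (adjusted p = 0.0301) and without replicate 1 of both groups (0.0118).

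The other 5 secreted or signalling genes were called in no fit. Egfl7, a secreted vessel protein, averaged 52.2 ± 4.94 CPM (46.8 to 56.5) and 54.2 ± 2.23 CPM (52.0 to 56.4), with the narrowest 95% interval of the set, from -0.15 to 0.26 on the log2 scale. Plvap, which forms the diaphragms of fenestrae, averaged 49.7 ± 8.39 CPM (40.0 to 54.6) and 54.1 ± 4.56 CPM (49.5 to 58.6). Mmrn2, a matrix protein that binds VEGF, averaged 24.7 ± 3.58 CPM (20.7 to 27.8) and 25.6 ± 4.46 CPM (21.1 to 30.02), and its groups overlapped almost wholly. Nos3, endothelial nitric oxide synthase, averaged 16.9 ± 3.84 CPM (12.6 to 19.9) and 18.2 ± 4.15 CPM (15.04 to 22.9). Ramp2, which with CALCRL forms the adrenomedullin receptor, averaged 39.8 ± 6.19 CPM (32.7 to 44.1) and 39.3 ± 6.95 CPM (32.5 to 46.4). A limit applies to Ramp2, since 33.4% of its exon length in GENCODE M21 overlaps Vps25, and reads of both cannot be told apart in these counts. For all 17 uncalled endothelial genes the 95% interval of the log2 fold change (not adjusted for the number of genes) lay within -1 and 1, between -0.62 and 0.81, so each interval excluded a 2-fold change at this replication.

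**Figure D2:**
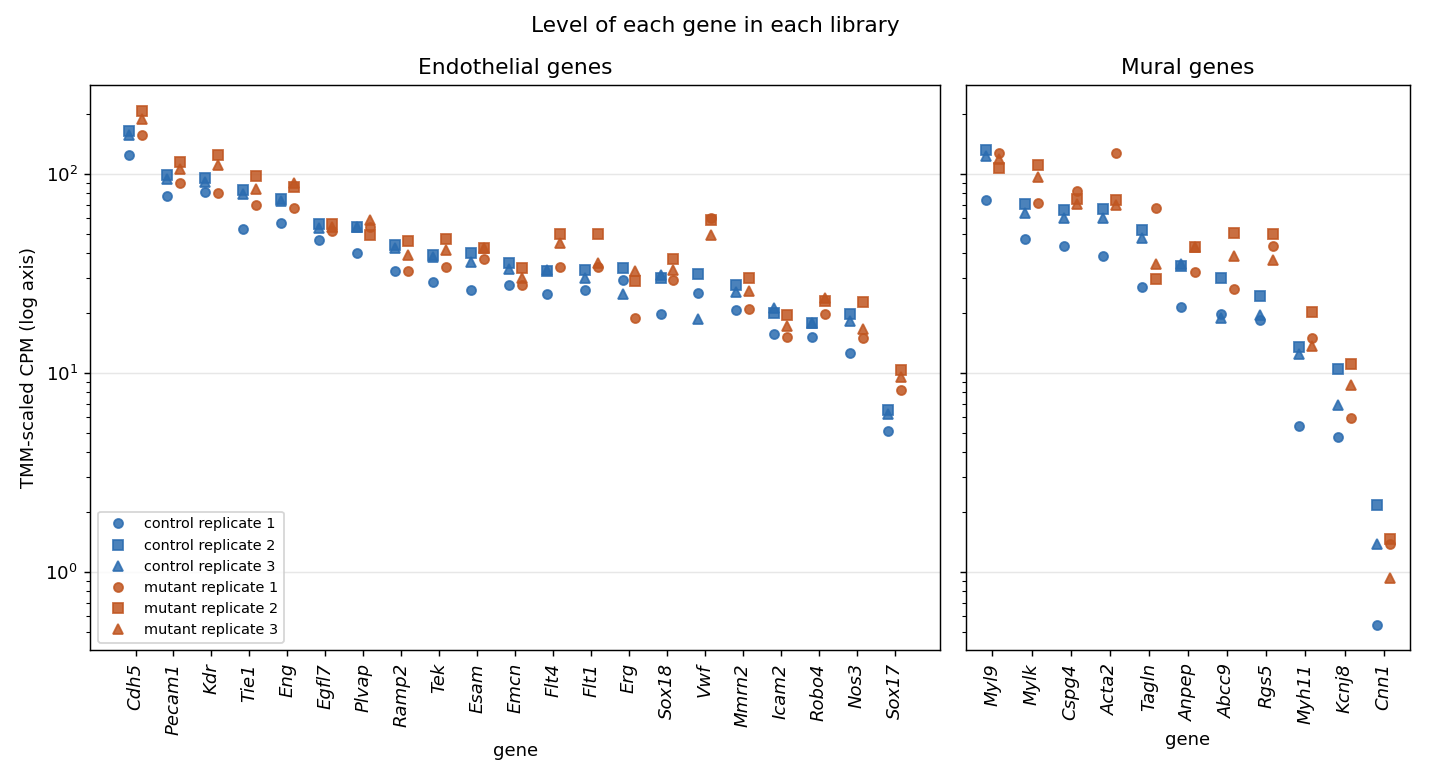
TMM-scaled CPM on a log axis for each gene (horizontal axis, ordered by control mean) in each of the 6 libraries, controls in blue and mutants in orange, with a marker shape for each replicate number. Circles in blue (control replicate 1) lie lowest for most genes, and the mutants lie wholly above the controls for Vwf and Rgs5.

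Smooth muscle contractile genes did not move as 1 block. Mylk, the kinase that starts smooth muscle contraction, was at 47.3, 71.1 and 63.6 CPM in the controls and 72.0, 112 and 97.3 CPM in the mutants. The lowest mutant lay just above the highest control, and Mylk rose 1.54-fold (log2 fold change 0.63, SE 0.20, edgeR adjusted p = 0.034). The call was lost without control replicate 1 (adjusted p = 0.0761), control replicate 3 (0.0697), mutant replicate 2 (0.116) or mutant replicate 3 (0.0926). The annotated exons of Mylk overlap an antisense gene over 4.87% of their length. Acta2, smooth muscle actin, was at 38.6, 66.7 and 60.0 CPM in the controls and 127, 74.4 and 70.3 CPM in the mutants. The groups did not overlap, but mutant replicate 1 stood far above the other 2 mutants, and Acta2 was not called (log2 fold change 0.72, SE 0.28, edgeR adjusted p = 0.069). It was called higher by DESeq2 (0.72, adjusted p = 0.015) and with a Y-linked covariate (1.24, edgeR adjusted p = 0.0404).

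Tagln, the actin-binding protein SM22, was at 27.2, 52.4 and 47.6 CPM in the controls and 67.3, 29.6 and 35.6 CPM in the mutants. Mutant replicate 1 was again the highest library, while the other 2 mutants lay below control replicates 2 and 3 (log2 fold change 0.06, SE 0.35). Without replicate 1 of both groups Tagln was called lower (log2 fold change -0.63, edgeR adjusted p = 0.00294), the only member called lower in any of the fits. Myl9, the regulatory light chain, was at 74.1, 132.2 and 123 CPM in the controls and 128, 107 and 119 CPM in the mutants, so all but control replicate 1 lay close together (log2 fold change 0.10, SE 0.20). With a Y-linked covariate Myl9 was called higher (0.63, edgeR adjusted p = 0.0372), while its value was -0.13 without control replicate 1. Per kilobase of exon Myl9 was the most abundant mural member, at 94.5 CPM per kb in the controls and 101.3 in the mutants.

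Myh11, the smooth muscle myosin heavy chain and the most specific marker of mature smooth muscle here, was at 5.42, 13.5 and 12.5 CPM in the controls and 15.0, 20.2 and 13.8 CPM in the mutants. Its groups touched without overlap, control replicate 1 stood apart at the low end, and it was not called (log2 fold change 0.64, SE 0.34, edgeR adjusted p = 0.162). With a Y-linked covariate Myh11 was called higher (1.43, edgeR adjusted p = 0.0431). Cnn1, calponin of differentiated smooth muscle, was the least abundant member, at 0.54, 2.18 and 1.39 CPM in the controls and 1.38, 1.46 and 0.93 CPM in the mutants. Its 95% interval, from -1.30 to 1.04 on the log2 scale, held changes of 2-fold in both directions.

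Of the pericyte genes, Rgs5 changed most. Rgs5, a brake on G protein signalling and a marker of pericytes, was at 18.5, 24.6 and 19.7 CPM in the controls and 43.5, 50.1 and 37.0 CPM in the mutants. The lowest mutant lay well above the highest control, and Rgs5 rose 2.08-fold (log2 fold change 1.06, SE 0.15, edgeR adjusted p = 0.00162). It was called in all 17 alternative analyses, at log2 fold changes from 0.94 to 1.29 and adjusted p from 1.65e-09 to 0.00823. The ATP-sensitive potassium channel of pericytes is built from the products of Abcc9 and Kcnj8. Abcc9, the regulatory subunit, was at 19.7, 29.9 and 18.9 CPM in the controls and 26.6, 50.8 and 38.7 CPM in the mutants. Mutant replicate 1 lay inside the control range, and Abcc9 just missed the threshold (log2 fold change 0.76, SE 0.27, edgeR adjusted p = 0.0509; 0.00919 to 0.169 over the alternatives). Kcnj8, the pore subunit, averaged 7.38 ± 2.86 CPM (4.79 to 10.5) and 8.59 ± 2.58 CPM (5.96 to 11.1), was called in no fit, and its log2 fold change was 0.22 (SE 0.33).

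Cspg4, the NG2 proteoglycan of pericytes, was at 43.4, 66.0 and 60.4 CPM in the controls and 82.3, 75.4 and 71.2 CPM in the mutants. Its groups did not overlap, and it too just missed the threshold (log2 fold change 0.43, SE 0.15, edgeR adjusted p = 0.0516; 0.00948 to 0.13 over the alternatives). Anpep, aminopeptidase N, which pericytes share with several other cell types, was at 21.6, 34.4 and 35.2 CPM in the controls and 32.3, 43.1 and 43.1 CPM in the mutants. Mutant replicate 1 lay below control replicates 2 and 3, and Anpep was not called (log2 fold change 0.38, SE 0.20, edgeR adjusted p = 0.172). It was called higher with the replicate block (adjusted p = 0.0235) and without replicate 1 of both groups (0.00939). Among the 9 uncalled mural genes, 5 had a 95% interval within -1 and 1 on the log2 scale, and Acta2, Myh11, Cnn1 and Abcc9 had a wider one.

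Within each group, most members shared a pattern among libraries. In the controls, replicate 1 was the lowest of the 3 for 19 of 21 endothelial and 10 of 11 mural genes, and replicate 2 the highest for 18 and 10. In the mutants, replicate 1 was the lowest for 19 of 21 endothelial genes and replicate 2 the highest for 16. The median endothelial gene lay 0.25 below its group mean in control replicate 1 and 0.20 below in mutant replicate 1, on the log2(CPM + 0.5) scale. Mural genes did not share the low level of mutant replicate 1: it was the highest of its group for 4 of 11 genes (Acta2, Tagln, Myl9 and Cspg4) and the lowest for 4. Replicate numbers come from the titles, which state no pairing, so the low level of both first replicates was not read as one.

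Because endothelial genes moved together between libraries, each was also set against the mean log2 level of the other 20 within its library, which removes a level shared by the set. On this relative scale 4 genes were higher in every mutant than in every control (Vwf, Sox17, Flt4 and Cdh5), 5 were lower (Icam2, Emcn, Ramp2, Mmrn2 and Pecam1) and 12 overlapped. A share over all tested genes was not computed on this scale. The measure forces some genes down when others go up, so only the order of genes is informative. The relative level of Vwf was -0.26, -0.34 and -1.01 in the controls and 0.76, 0.34 and 0.22 in the mutants, a difference of 0.98 between the group means. The relative level of Sox17 was -2.56, -2.64 and -2.60 in the controls and -2.18, -2.24 and -2.21 in the mutants, a difference of 0.39 with little spread. Icam2 differed by -0.38 and Emcn by -0.33, while Cdh5 (0.08) and Pecam1 (-0.04) differed little. Among the 11 mural genes on the same scale, Rgs5 was higher in every mutant (difference 0.64), Cnn1 and Myl9 were lower and 8 overlapped.

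**Figure D3:**
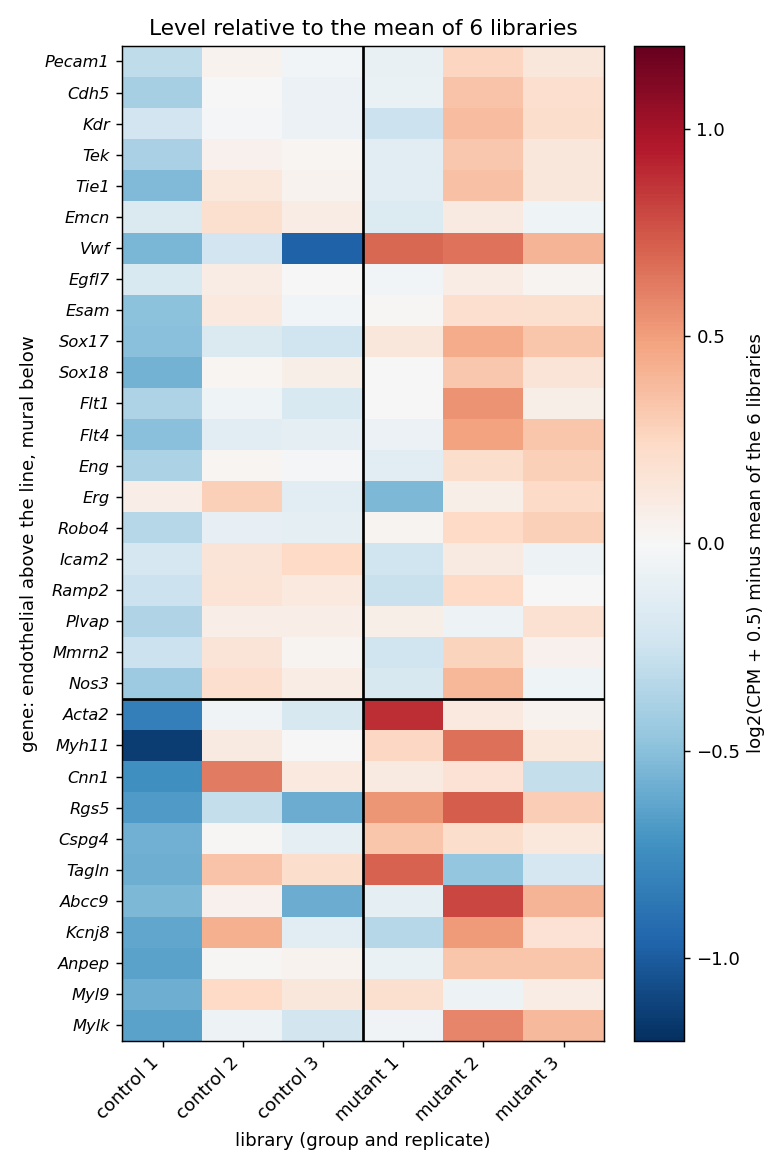
Colour shows log2(CPM + 0.5) of each gene (rows) minus its mean over the 6 libraries (columns), endothelial genes above the line and mural genes below. Control replicate 1 is blue in nearly every row, and Vwf and Rgs5 are red in all 3 mutants.

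Of 14 tested VEGF and angiopoietin ligands and co-receptors (with the related BMP9 and adrenomedullin genes), 6 rose and 2 fell, so 57.1% were called beside 45.8% of all tested genes. Acvrl1, the endothelial BMP9 receptor ALK1, which signals with ENG, had means of 28.7 ± 2.33 CPM in the controls and 47.6 ± 3.95 CPM in the mutants and rose by 0.73 on the log2 scale (SE 0.10, edgeR adjusted p = 0.00127). Calcrl, the partner of RAMP2 in the adrenomedullin receptor, rose by 0.57 (SE 0.09), from 25.1 ± 0.77 to 37.3 ± 3.00 CPM. Its ligand Adm rose by 1.5 (SE 0.27), from 0.99 ± 0.22 to 2.81 ± 0.28 CPM. Vegfa, chosen for mention after its values were seen, was at 100.7, 78.2 and 86.2 CPM in the controls and 125, 111 and 103 CPM in the mutants (0.35, SE 0.11, edgeR adjusted p = 0.0371). Angpt1, also chosen after its values were seen, went from 95.9, 156 and 144 CPM to 204, 269 and 202 CPM (0.77, SE 0.20, edgeR adjusted p = 0.0158). The call of Vegfa was lost with a Y-linked covariate (0.15, adjusted p = 0.399) and without control replicate 2 or 3 or mutant replicate 1 or 2 (adjusted p = 0.0855 to 0.111), and that of Angpt1 without mutant replicate 2 (0.0574). Nrp1, a VEGF and semaphorin co-receptor, rose from 157 ± 5.05 to 239 ± 37.9 CPM (0.61, SE 0.11; adjusted p = 0.0566 with a Y-linked covariate). The 2 that fell were Vegfb (-0.34, SE 0.07) and Vegfd (-0.54, SE 0.17). The count that fell was 1 with library size only, with thinned controls, or without control replicate 2 or 3 or mutant replicate 1 or 3, 0 with a Y-linked covariate and 4 without replicate 1 of both groups.

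Endothelial transcription factors outside the member list were mostly not called, with 13 of 15 tested genes in that state (13.3% called beside 45.8% of all tested genes). Lyl1, a blood and vessel factor, rose by 0.84 on the log2 scale (SE 0.25, edgeR adjusted p = 0.0286), with means of 5.72 ± 1.78 and 10.3 ± 1.002 CPM. Mef2c, which also acts in muscle and bone cells, fell by 1.02 on that scale (SE 0.25, edgeR adjusted p = 0.014), with means of 160 ± 55.8 and 79.1 ± 9.61 CPM. The count that rose was 0 without mutant replicate 2 or 3 and 2 without mutant replicate 1, and the count that fell was 2 without control replicate 1. With a Y-linked covariate Mef2c was not called (-0.35, edgeR adjusted p = 0.244), so the count that fell was 0. Etv2, the factor that starts endothelial fate early in development, had no counts in the mutants and a mean of 0.0066 CPM in the controls.

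Of 15 tested genes of arterial, venous and lymphatic identity, 5 rose and 1 fell (Unc5b, -0.68, SE 0.22), so 40% were called beside 45.8% of all tested genes. Bmx, a kinase of arterial endothelium, went from 1.2, 2.13 and 2.08 CPM to 12.2, 17.4 and 14.7 CPM, the largest change of this list (3.03 on the log2 scale with SE 0.27, edgeR adjusted p = 0.000346). Other arterial genes of the list were not called. Gja4 (0.09), Gja5 (-0.06) and Hey2 (-0.13) overlapped between the groups, and Dll4 (0.24) and Efnb2 (0.21) were higher without overlap. The change of Bmx was thus not shared by these arterial genes. Prox1, the master factor of lymphatic endothelium that other tissues use too, went from 13.1, 6.17 and 8.98 CPM to 16.5, 21.2 and 21.9 CPM (1.08, SE 0.27, edgeR adjusted p = 0.0149). The call of Prox1 was lost with a Y-linked covariate (0.49, adjusted p = 0.123) and without mutant replicate 2 (0.0519) or 3 (0.0512). The others that rose were Nrp1 (0.61, above), Nr2f2, the factor of venous fate (0.25, SE 0.07), and Pdpn (0.41, SE 0.14). Nr2f2 lost its call with a Y-linked covariate (edgeR adjusted p = 0.0652) and without control replicate 3 (0.0849) or mutant replicate 2 (0.0606). Pdpn lost its call without any single library (edgeR adjusted p = 0.0584 to 0.145). The Pdpn call was also lost with a Y-linked covariate, the GC and length correction, no filter or without replicate 1 of both groups. The count that rose was 2 with a Y-linked covariate, 2 when mutant replicate 2 was dropped and 3 when the third replicate of either group was dropped. The fall of Unc5b was not called without control replicate 2 or 3 or mutant replicate 1 or 3, with a Y-linked covariate or with the GC and length correction. The lymphatic chemokine Ccl21a had no counts in any library.

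Of 12 tested genes of pericyte recruitment and identity, 5 rose and 1 fell (Tbx18, -2.11, SE 0.50), so 50% were called beside 45.8% of all tested genes. Tbx18 was at 14.51, 4.23 and 4.92 CPM in the controls and 1.49, 2.28 and 1.69 CPM in the mutants. Control replicate 1 stood apart, and without it Tbx18 fell by 1.34 (edgeR adjusted p = 0.00741). Ndufa4l2, a mitochondrial protein of pericytes that is also induced by hypoxia in other cells, went from 10.4, 19.2 and 26.4 CPM to 138.3, 148 and 170 CPM (3.02, SE 0.31, edgeR adjusted p = 0.000506). Notch3, the Notch receptor of mural cells, rose from 183 ± 10.5 to 268 ± 8.73 CPM (0.55, SE 0.07) and Pdgfb from 13.8 ± 1.39 to 22.8 ± 2.25 CPM (0.72, SE 0.13). Jag1 (0.39, SE 0.11) and Cox4i2 (0.56, SE 0.19) also rose. The 6 genes not called were Pdgfrb (0.10), Des (0.03), Heyl (-0.03), Mcam (-0.04), Cdh2 (-0.40) and S1pr1 (-0.46). Pdgfrb had means of 260 ± 22.3 CPM in the controls and 278 ± 12.5 CPM in the mutants. The call of Cox4i2, whose groups overlapped, was lost without any single library other than mutant replicate 1 (edgeR adjusted p = 0.0668 to 0.156). It was also lost with a Y-linked covariate, the GC and length correction, limma-voom or no filter. Jag1 lost its call without control replicate 2 or 3 or mutant replicate 1 or 2 (edgeR adjusted p = 0.0639 to 0.0869). A Y-linked covariate ended the Jag1 call too (edgeR adjusted p = 0.272). The count that rose was 3 with a Y-linked covariate or without control replicate 2 or mutant replicate 2. The count that fell was 3 without control replicate 1. The pericyte markers Vtn and Higd1b were near 0 in both groups (means of 0.058 and 0.080 CPM in the controls and 0.22 and 0.13 CPM in the mutants) and did not pass the filter. Limma-voom called none of this list lower, where edgeR called 1 and DESeq2 3; at an unadjusted edgeR p under 0.05 there were 3 lower.

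Of 16 genes of the SRF and myocardin contractile program, 4 rose and 2 fell, so 37.5% were called beside 45.8% of all tested genes. Mrtfa and Mrtfb, the myocardin-related SRF partners, both rose. Srf itself was not called (0.03, SE 0.06, edgeR adjusted p = 0.645). Neither was Myocd (0.12, SE 0.48, edgeR adjusted p = 0.86), which was low in both groups (means of 0.63 and 0.69 CPM). Mrtfa had means of 61.6 ± 5.25 and 86.8 ± 4.52 CPM (0.50, SE 0.08, edgeR adjusted p = 0.00288), and Mrtfb of 75.9 ± 4.10 and 94.0 ± 1.87 CPM (0.31, SE 0.06, edgeR adjusted p = 0.00708). Tpm1, a tropomyosin found in many cell types, fell from 971 ± 176 to 587 ± 35.5 CPM (-0.72, SE 0.14). Ppp1r14a (1.06, SE 0.25) and Synpo2 (0.61, SE 0.18) also rose, and Cald1 fell (-0.22, SE 0.07). The call of Synpo2 was lost with a Y-linked covariate (0.43, edgeR adjusted p = 0.271), with the replicate block (0.0508) and without control replicate 1 or 2 or mutant replicate 2 or 3 (0.0638 to 0.0913). Cald1 was not called without control replicate 2 or 3 or mutant replicate 2 or 3, with library size only, with at least 1 CPM in 3 libraries, with the replicate block, with a Y-linked covariate or with the GC and length correction, which left 1 gene that fell. The count was 4 without replicate 1 of both groups.

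Markers of several other cell types differed between the groups as well, beside 24.1% of all tested genes called higher and 21.7% called lower. All 12 epithelium markers were called higher (summed 1097 to 1826 CPM in the controls and 5907 to 6709 CPM in the mutants), as were 11 of 12 macrophage markers, whose summed level was 90.2 to 152.4 CPM in the controls and 348.9 to 422.9 CPM in the mutants. All 9 tested osteoblast markers, 7 of 10 skeletal muscle markers and 5 of 8 red blood cell markers were called lower. Osteoblast markers also separated the controls, at a summed 1115 CPM in replicate 1 and 3724 and 3213 CPM in replicates 2 and 3. The lower osteoblast count was 3 with a Y-linked covariate and 5 without mutant replicate 2, and the lower skeletal muscle count was 1 with limma-voom or the filter of at least 1 CPM, and 3 or 4 without control replicate 1 or any single mutant. Of 6 glia markers, 1 was called higher (Erbb3) and 5 were not called (16.7% called). The higher glia count was 2 with the GC and length correction, without mutant replicate 1 or without replicate 1 of both groups. Without control replicate 3, 1 glia marker was called lower. The part of these cell types in the vessel gene results was not tested.

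**Figure D4:**
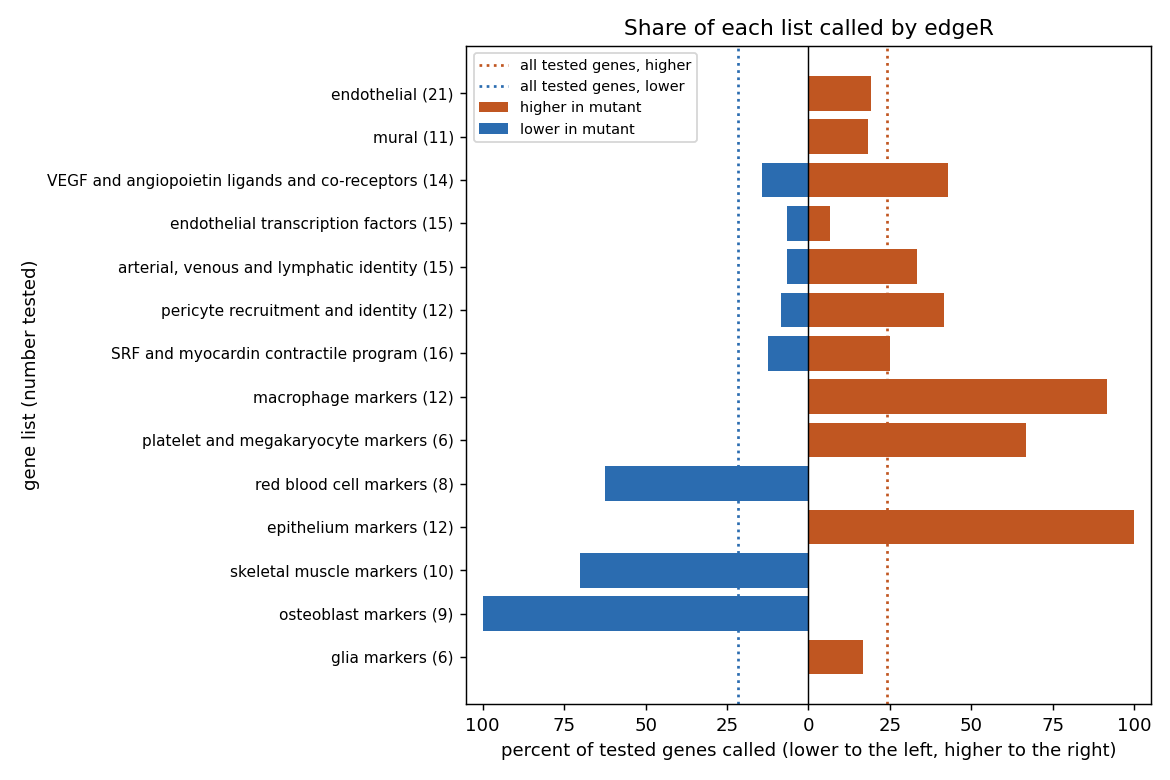
Bars give the percentage of tested genes of each list called higher (right, orange) or lower (left, blue) in the mutant by edgeR at an adjusted p under 0.05. Dotted lines give the same over all tested genes (24.1% higher, 21.7% lower), and both vessel lists lie short of the line for higher genes with none lower.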

How the data were processed

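The authors deposited 1 table of whole-number read counts per gene symbol for each library, per the file headers and values. HISAT2 and StringTie, and both mm9 and mm10, are named per the submitters' processing notes, with counter, strand setting and annotation as not given in the sources used here. Where a gene overlaps another, on either strand, the counts may mix both. Groups and replicate numbers came from the titles.

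Counts were analysed with edgeR 4.0.16 in R 4.3.3: filterByExpr by group, TMM scaling, the quasi-likelihood F test of mutant against control without a covariate, and Benjamini-Hochberg adjustment over 16604 genes with a threshold of 0.05. Standard errors (SE) were derived from the size of the log2 fold change and the root of its F value, and 95% intervals use the test's degrees of freedom. Levels are TMM-scaled CPM, as mean ± SD over 3 libraries. Levels per kilobase use exon lengths of GENCODE M21 on GRCm38, which held 21777 of the 23420 symbols (93.0%). The files hold 5 of the listed genes under older names. The step was tested on simulated data with known changes in far fewer genes than were called here. That test does not cover changes this widespread.

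Depth was 52668242 to 134813429 counts per library. Among counts of 5 to 50, even numbers made up 63.6% to 73.0% in 5 libraries and 99.7% in mutant replicate 1. The count of every member in mutant replicate 1 was even as well, such as 8616 for Cdh5 and 452 for Sox17. Counts are thus not all independent reads, and in mutant replicate 1 this was not limited to low counts. The depth of that library, and results that turn on it, carry this limit. The cause was not tested.

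Alternatives were RLE scaling, library size only, no filter, at least 1 CPM in 3 libraries, DESeq2 1.42.0, limma-voom (limma 3.58.1), a replicate block, the mean log2 CPM of 4 Y-linked genes as covariate, a centred correction for GC content and length, controls thinned to the smallest library, each library left out, and replicate 1 of both groups left out. Members and lists were chosen with earlier results of these data known. All members are reported: those called by any fit per library, and those called by none by mean and range, except Erg and Cnn1, which are given per library because their sign or spread turned on single libraries. Of each pathway list, up to 3 called genes with the smallest p are named. Other genes are named as chosen after their values were seen, to complete a small count, or as uncalled genes beside called ones.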

Additional observations from a re-analysis of the deposited data

How the results depend on the processing

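Depth and genotype coincide in these 6 libraries. The Y-linked measure was higher in every mutant (5.63 to 5.87) than in every control, but control replicate 1 (5.43) lay close to the mutants. Among the uncalled members, the 95% interval reached past a 2-fold change for Acta2, Myh11, Cnn1 and Abcc9. Vwf and Rgs5 kept direction and call in all 17 alternatives. With the Y-linked covariate 4874 genes were called, 2635 higher and 2239 lower, against 7606, 3999 and 3607 without it; the endothelial median was then 0.47 and the mural median 0.96, and 6 mural genes were called higher. Mural genes called higher numbered 4 with RLE scaling, library size only, at least 1 CPM in 3 libraries, the GC and length correction or thinned controls, and 5 with DESeq2. Leaving out 1 library gave 1 to 7 endothelial and 1 to 4 mural genes called higher. Leaving out replicate 1 of both groups gave 8 endothelial and 5 mural genes higher and 1 mural gene lower (Tagln). The cause of these shifts was not tested.

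The labels do not say whether replicate numbers pair the libraries. Same-numbered libraries correlated in their deviations from the group means at 0.081, 0.082 and 0.020. Differently numbered libraries correlated at -0.092 to 0.048, and control replicate 3 correlated best with mutant replicate 2. Correlations this small cannot settle whether the libraries were paired. With the replicate block 7 endothelial and 4 mural genes were called higher, and Cnn1 stood at 0.0264.

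Signs of 12 uncalled genes turned in some setting (log2 fold changes). With the Y-linked covariate Emcn was 0.13, Icam2 0.0519, Ramp2 0.21 and Cnn1 1.21. With the GC and length correction Emcn was 0.0551, Tagln -0.13 and Myl9 -0.11. Ramp2 was 0.0492 with library size only and 0.0087 with at least 1 CPM, and limma-voom gave 4e-04 for Cnn1 and -0.0027 for Tagln. Without replicate 1 of both groups Egfl7 was -0.0015, Erg 0.0572, Plvap -0.0235, Tagln -0.63 and Myl9 -0.19. Leaving out 1 library at a time, the ranges were -0.0317 to 0.11 for Egfl7, -0.29 to 0.0694 for Erg, -0.16 to 0.10 for Ramp2, -0.0233 to 0.19 for Plvap, -0.0749 to 0.18 for Mmrn2, -0.10 to 0.23 for Nos3, -0.51 to 0.37 for Cnn1, -0.38 to 0.28 for Tagln, -0.0266 to 0.55 for Kcnj8 and -0.13 to 0.25 for Myl9.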
